A study of Homo sapiens with 16 samples.

Results

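Annexins are proteins that bind acidic phospholipids in membranes when calcium rises, and they take part in membrane repair, vesicle traffic and the anchoring of the actin cortex. S100 proteins are small EF-hand proteins, most of which change shape on binding calcium and then bind a target protein. Several pair with annexins: S100A10, whose EF hands do not bind calcium, joins ANXA2 in a complex at the inner face of the plasma membrane that can also reach the cell surface and take part in plasminogen activation, and S100A11 binds ANXA1. The genes described here are 10 members of the 2 families chosen by name: ANXA1, ANXA2, ANXA4, ANXA5, ANXA6, ANXA11, S100A4, S100A6, S100A10 and S100A11. The choice was made with earlier results of these data known. The 10 genes are part of the 35052 genes in the data, and all 10 were among the 17559 genes tested.

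The study followed K562 cells, an established line from a chronic myeloid leukaemia that carries erythroid features, through treatment with phorbol 12-myristate 13-acetate (PMA), a phorbol ester that activates protein kinase C. PMA was used at 25 nM. RNA was taken at 0 h, which served as the untreated group, and at 0.5 h, 1.5 h, 3 h, 6 h, 24 h, 48 h and 72 h, with medium changes after 24 and 48 h. Each of the 8 time points has 2 libraries, 16 in all, made from total RNA depleted of ribosomal RNA. The labels do not say whether the libraries of a time point came from separate cultures, so the p-values measure the spread between these libraries, which may be technical. With 2 libraries against 2, no permutation of single values could reach 0.05, and the tests below take their spread from all 16 libraries.

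The libraries held between 27285773 and 54056289 estimated reads. Replicate 2 libraries of the treated time points had longer fragments than replicate 1 (229 to 248 against 210 to 221 nt, read as transcript length minus effective length), whereas at 0 h replicate 2 had 199 nt and replicate 1 had 217 nt. By chi-square the 0 h pair also differed most between its libraries, at 43.9 per gene against 7.54 to 31.4 at the other time points. By correlation of log2 levels the 72 h pair was the least alike (r = 0.984), with 0.986 at 0 h. Of the marker lists checked, 6 megakaryocyte genes summed to between 36.9 and 45.1 TPM (a level corrected for transcript length) at 0 h and between 1790 and 1875 TPM at 72 h. THBS1 and ITGB3 carried that sum, while ITGA2B was at 34.2 and 42.6 TPM at 0 h, 8.30 and 6.68 TPM at 24 h, and 41.4 and 45.3 TPM at 72 h. The 8 K562 and erythroid genes summed to between 4851 and 5333 TPM at 0 h and between 3370 and 4582 TPM at 72 h. The 7 monocyte and macrophage genes summed to between 59.3 and 136 TPM over all libraries, mostly LYZ and CD163. Within that list S100A8 had 1 read or fewer and MPEG1 2 reads or fewer, whereas CSF1R was at 0.127 and 0.0387 TPM at 0 h and 7.77 and 7.08 TPM at 72 h, and S100A9 at 0 and 0.121 TPM against 3.07 and 2.87 TPM. The 5 fibroblast genes summed to between 13.4 and 13.7 TPM at 0 h and between 82.2 and 122 TPM at 72 h, mostly COL1A1, with COL3A1 at 5 reads or fewer. The 3 T cell genes summed to between 24.2 and 36.3 TPM at 0 h and between 60.3 and 76.8 TPM at 72 h, mostly CD3D, with CD3E at 11 reads or fewer. The 3 B cell genes summed to 3.62 TPM or less in every library, with MS4A1 at 1 read or fewer and CD79A at 0.135 and 0.128 TPM at 0 h and 1.54 and 1.56 TPM at 72 h. The megakaryocyte, fibroblast and T cell sums were thus higher at 72 h than at 0 h, alongside the late rises described below, and their part in those rises was not tested. In these bulk libraries, fewer cells with a transcript and less of it per cell cannot be told apart.

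The 10 genes lie on 7 chromosomes in the GENCODE 29 annotation of GRCh38. All 4 S100 genes are on chromosome 1: S100A10 (ENSG00000197747) at 151982915 to 151994390, S100A11 (ENSG00000163191) at 152032506 to 152047907, S100A6 (ENSG00000197956) at 153534599 to 153536244 and S100A4 (ENSG00000196154) at 153543613 to 153550136, each on the minus strand. The annexins are spread over 6 chromosomes, with ANXA2 (ENSG00000182718) on chromosome 15 at 60347134 to 60402883 and ANXA1 (ENSG00000135046) on chromosome 9 at 73151757 to 73170393. ANXA4 (ENSG00000196975) is on chromosome 2 at 69644425 to 69827100, ANXA5 (ENSG00000164111) on chromosome 4 at 121667955 to 121697113, ANXA6 (ENSG00000197043) on chromosome 5 at 151100712 to 151157882, and ANXA11 (ENSG00000122359) on chromosome 10 at 80150889 to 80205572. ANXA1 and ANXA4 are on the plus strand and the other annexins on the minus strand.

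Promoter windows of 300 bases (250 before to 50 after the start site, from RefSeq on GRCh38.p14) were found for all 10 genes, 14 windows in all, and are shown for 3 genes whose courses differ: ANXA2, its partner S100A10, and ANXA1. The windows lie at chr15:60397937-60398236 on the minus strand, chr1:151993810-151994109 on the minus strand and chr9:73151615-73151914 on the plus strand. Capitals mark the AP-1 letters TGACTCA or their reverse complement TGAGTCA, the recognition letters of FOS and JUN dimers.
ANXA2: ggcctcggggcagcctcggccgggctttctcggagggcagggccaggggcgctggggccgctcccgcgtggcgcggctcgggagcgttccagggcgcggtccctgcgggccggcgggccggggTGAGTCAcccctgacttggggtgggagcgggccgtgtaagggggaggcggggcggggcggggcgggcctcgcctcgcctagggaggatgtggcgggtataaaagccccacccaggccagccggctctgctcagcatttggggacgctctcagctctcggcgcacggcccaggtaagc
S100A10: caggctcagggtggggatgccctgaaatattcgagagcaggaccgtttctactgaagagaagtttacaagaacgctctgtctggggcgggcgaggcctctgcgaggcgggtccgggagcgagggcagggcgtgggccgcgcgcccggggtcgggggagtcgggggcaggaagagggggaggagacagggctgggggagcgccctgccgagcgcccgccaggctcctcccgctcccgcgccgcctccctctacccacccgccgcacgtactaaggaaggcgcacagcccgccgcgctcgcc
ANXA1: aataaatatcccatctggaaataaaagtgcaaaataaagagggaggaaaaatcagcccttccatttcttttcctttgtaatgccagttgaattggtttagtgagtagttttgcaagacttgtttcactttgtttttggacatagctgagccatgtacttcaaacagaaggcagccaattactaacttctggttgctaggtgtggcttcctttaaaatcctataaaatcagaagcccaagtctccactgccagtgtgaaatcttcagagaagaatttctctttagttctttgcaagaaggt
AP-1 letters, searched on both strands, occurred in 1 of the 14 windows, that of ANXA2, where the first base lies at -127 from the start site. The same letters occurred in 4.949% of the 35116 windows of that length in the table. The EGR letters GCGTGGGCG or GCGGGGGCG occurred in none of the 14 windows and in 5.769% of all windows, and the GATA letters AGATAA in none of the 14 and in 10.331% of all. The windows ranged from 37.67% GC at ANXA1 to 78.0% GC at ANXA4. These matches describe letters in a window and do not show a bound site.

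By 72 h, 8 of the 10 genes had risen against 0 h and 2 had fallen, at a background of 58.6% of all genes called in either direction, 31.7% higher and 26.9% lower (edgeR's quasi-likelihood test, adjusted p under 0.05 over all genes tested). The rises were S100A10, S100A6, ANXA5, ANXA4, S100A4, ANXA2, S100A11 and ANXA6, and the falls were ANXA1 and ANXA11. The median log2 fold change of the 10 genes was 1.59, beside -0.03 over all genes tested. Every comparison with 0 h uses the same pair of control libraries, so the 7 comparisons are not independent of each other.

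**Figure D1:**
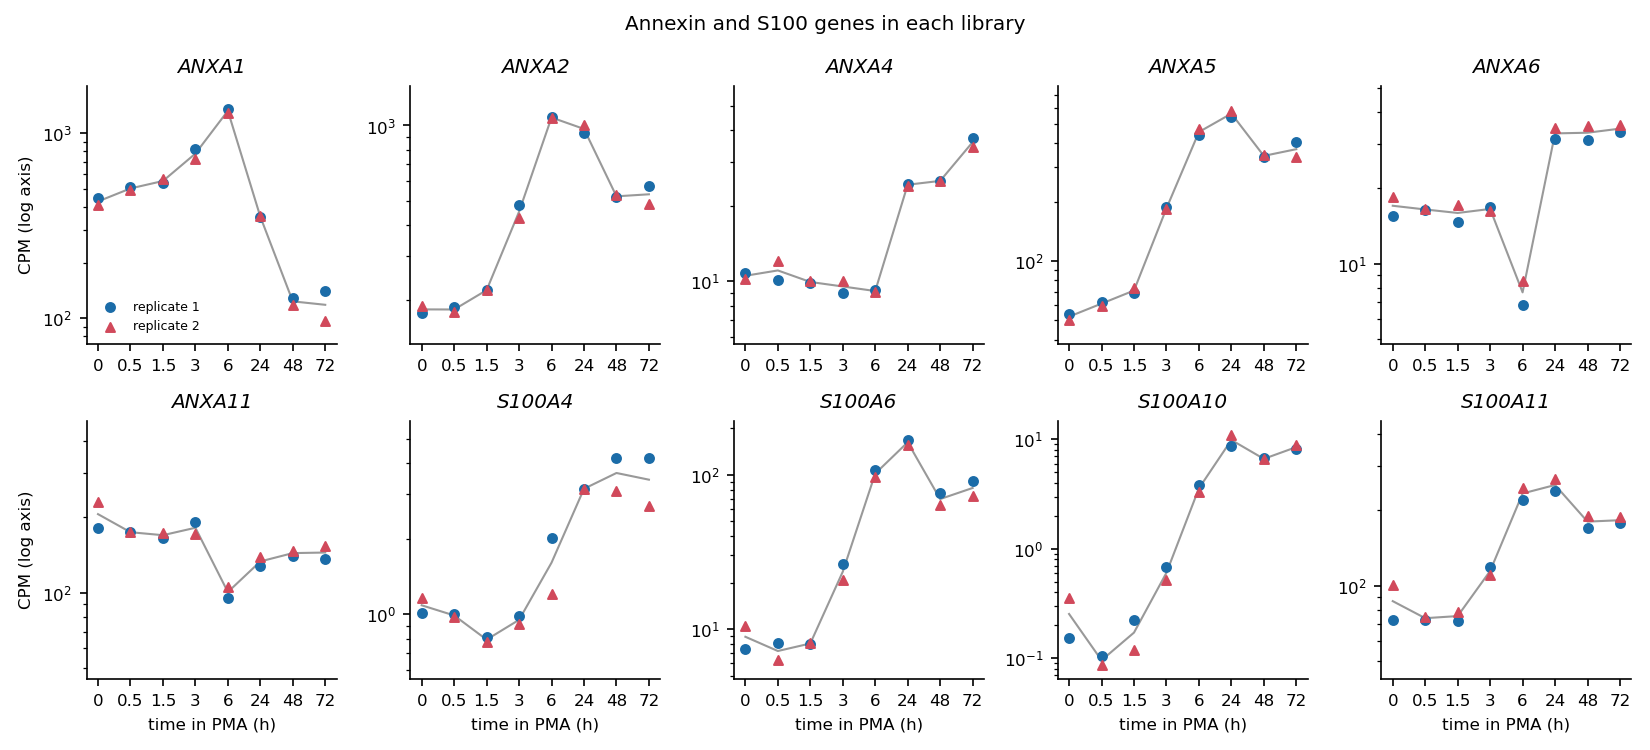
TMM-scaled CPM (log axis) of the 10 genes in each of the 16 libraries against time in PMA (not to scale); circles are replicate 1, triangles replicate 2, and the line joins the means. By mean, ANXA1 and ANXA2 were highest at 6 h, ANXA5, S100A6, S100A10 and S100A11 at 24 h, and ANXA6 and ANXA11 were lowest at 6 h. The 6 and 24 h libraries of S100A11 overlapped, as did the 24 and 72 h libraries of S100A10, and the ANXA2 step from 6 to 24 h was not called.

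ANXA2, the annexin that pairs with S100A10, rose early and stayed up. Its level in CPM (counts scaled to library size with TMM factors) was 178 and 190 CPM (0 h), 189 and 179 (0.5 h), 219 and 220 (1.5 h), 480 and 426 (3 h), 1078 and 1074 (6 h), 936 and 1001 (24 h), 517 and 526 (48 h) and 575 and 487 (72 h), with replicate 1 given first here and below. The libraries from 3 h onward all lay above those of the first 3 time points, and those of 6 and 24 h lay above all others. Against 0 h its log2 fold change was 1.30 at 3 h, 2.55 (SE 0.10, edgeR adjusted p = 1.47e-10) at 6 h and 1.53 (SE 0.10) at 72 h. From 6 to 24 h the difference of -0.15 (SE 0.10) did not pass the test, though it did with each library's GC trend removed (-0.22), and from 24 to 48 h ANXA2 fell by 0.89 on the log2 scale. Its processed pseudogenes ANXA2P1, ANXA2P2 and ANXA2P3 held 3 reads or fewer in any library.

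S100A10 was near the detection limit at the start and had the largest log2 rise of the 10 genes. Its reads were 5 and 11 reads (0 h), 4 and 3 (0.5 h), 8 and 4 (1.5 h), 25 and 16 (3 h), 89 and 94 (6 h), 268 and 533 (24 h), 220 and 235 (48 h) and 292 and 283 (72 h). In CPM these were 0.153 and 0.354 CPM (0 h), 0.106 and 0.0860 (0.5 h), 0.224 and 0.119 (1.5 h), 0.685 and 0.522 (3 h), 3.80 and 3.33 (6 h), 8.65 and 11.1 (24 h), 6.70 and 6.55 (48 h) and 8.14 and 8.84 (72 h). Every library from 3 h onward lay above every earlier one, and those of 24, 48 and 72 h above those of 6 h. The log2 fold change against 0 h was 3.80 (SE 0.31) at 6 h, 5.27 (SE 0.30, edgeR adjusted p = 4.42e-09) at 24 h and 5.05 (SE 0.30) at 72 h. With so few reads at 0 h the size depends on which control library is used: without 0 h replicate 1 the 72 h value was 4.57 and without 0 h replicate 2 it was 5.75. The rise at 3 h (1.26, SE 0.37) did not pass without 0 h replicate 1 (0.77), without 3 h replicate 1 (1.04) or with only the 4 libraries compared in the fit (1.24). At 0.5 h the difference was -1.36 (SE 0.51, edgeR adjusted p = 0.189), which passed without 0 h replicate 1 (-1.84). From 24 to 48 h it was -0.57 (SE 0.21, edgeR adjusted p = 0.0903), which passed with only the 4 libraries compared (-0.56).

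Per length, the pair stayed unequal throughout. ANXA2 stood at 455 and 218 times the TPM of S100A10 at 0 h, at 107 and 121 times at 6 h, and at 26.8 and 20.8 times at 72 h. Both genes rose, and the ratio was lower in both 72 h libraries than in any other library.

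ANXA1, a ligand of formyl peptide receptors that is known for limiting inflammation, rose for 6 h and then fell below its starting level. Its level was 449 and 407 CPM (0 h), 511 and 496 (0.5 h), 536 and 568 (1.5 h), 826 and 727 (3 h), 1352 and 1295 (6 h), 352 and 356 (24 h), 129 and 118 (48 h) and 140 and 96.3 (72 h). The 6 h libraries lay above all others and the 48 and 72 h libraries below all others. It was 1.63 log2 units above 0 h at 6 h (SE 0.14, edgeR adjusted p = 2.82e-07) and 1.86 log2 units below it at 72 h (log2 fold change -1.86, SE 0.14, edgeR adjusted p = 8.61e-08). Between these, the step from 6 to 24 h was -1.90 (SE 0.14) and that from 24 to 48 h -1.52 (SE 0.14). At 24 h it was at -0.27 (SE 0.14) against 0 h, which did not pass (edgeR adjusted p = 0.106), whereas scaling to total counts gave -0.52 and removing each library's GC trend -0.48, both of which passed. The step from 1.5 to 3 h (0.49, SE 0.14) was called with all libraries and was lost without 1.5 h replicate 1 (0.45), without 1.5 h replicate 2 (0.53), without 3 h replicate 1 (0.40) or with total-count scaling (0.30).

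S100A11, which binds ANXA1 and ANXA2, rose by less than S100A6 or S100A10, and at 0 h it was the most abundant of the 4 S100 genes per length. Its level was 73.1 and 100 CPM (0 h), 73.1 and 75.2 (0.5 h), 72.4 and 78.8 (1.5 h), 118 and 111 (3 h), 220 and 246 (6 h), 237 and 265 (24 h), 170 and 189 (48 h) and 177 and 187 (72 h). The 0 h pair was spread, and its higher library lay above those of 0.5 and 1.5 h. S100A11 was 1.54 log2 units above 0 h at 24 h (SE 0.13, edgeR adjusted p = 2.77e-07) and 1.07 (SE 0.13) at 72 h. The rise at 3 h (0.40, SE 0.13) did not pass without 0 h replicate 1 (0.19), without 3 h replicate 1 (0.35) with only the 4 libraries compared (0.39) or when libraries were scaled to total counts (0.12). Its fall from 24 to 48 h (-0.48, SE 0.13) did not pass without 24 h replicate 2 (-0.37), 48 h replicate 1 (-0.41) or 48 h replicate 2 (-0.57). Its pseudogenes held 4 reads or fewer in any library.

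ANXA5 binds phosphatidylserine and is widely used to stain dying cells. Its level was 54.1 and 50.5 CPM (0 h), 62.4 and 59.4 (0.5 h), 69.1 and 72.8 (1.5 h), 188 and 183 (3 h), 438 and 468 (6 h), 542 and 582 (24 h), 339 and 347 (48 h) and 403 and 338 (72 h). The libraries of each time point from 3 h onward lay above every earlier library up to 24 h, and those of 48 and 72 h lay between the 3 and 6 h libraries. It was the only one of the 10 genes called at 1.5 h, at a background of 17.1% of all genes in either direction and 9.05% higher, and its difference was 0.44 log2 units (SE 0.10, edgeR adjusted p = 0.00859). That early call was lost without 0 h replicate 2 (0.39) or 1.5 h replicate 2 (0.40), or with only the 4 libraries compared in the fit (0.45). ANXA5 was 3.43 log2 units above 0 h at 24 h (SE 0.10, edgeR adjusted p = 8.25e-12) and 2.83 (SE 0.10) at 72 h. The last step up, from 6 to 24 h, was 0.31 (SE 0.09) and was lost without 6 h replicate 1 (0.25), 6 h replicate 2 (0.34) or 24 h replicate 2 (0.22).

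S100A6, known as calcyclin, followed a course like that of ANXA5 with a larger rise. Its level was 7.40 and 10.5 CPM (0 h), 8.11 and 6.34 (0.5 h), 7.98 and 8.17 (1.5 h), 26.4 and 20.7 (3 h), 107 and 96.4 (6 h), 168 and 157 (24 h), 75.9 and 63.3 (48 h) and 91.5 and 72.7 (72 h). The libraries up to 1.5 h did not separate from each other, while those of 6 and 24 h lay above all others. It was 4.18 log2 units above 0 h at 24 h (SE 0.19, edgeR adjusted p = 5.11e-10) and 3.20 (SE 0.19) at 72 h. From 24 to 48 h it fell by 1.22 on the log2 scale (SE 0.17). The step from 6 to 24 h (0.67, SE 0.17) came to 0.34 once each library's GC trend was removed, which did not pass.

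ANXA4, an annexin of the Golgi and plasma membrane, and ANXA6, a large annexin linked to endocytosis and cholesterol traffic, rose late. ANXA4 was at 10.8 and 10.2 CPM (0 h), 10.1 and 12 (0.5 h), 9.89 and 10 (1.5 h), 9.02 and 10.1 (3 h), 9.22 and 9.10 (6 h), 24.5 and 24.1 (24 h), 25.1 and 25.2 (48 h) and 37.4 and 34.3 (72 h). Its libraries up to 6 h all lay below those from 24 h on, and the 72 h libraries lay above all others. It was 1.20 log2 units above 0 h at 24 h (SE 0.11) and 1.77 at 72 h (SE 0.11, edgeR adjusted p = 1.11e-08). It was the only gene called from 48 to 72 h (0.51, SE 0.11, edgeR adjusted p = 0.0334), at a background of 1.47% of all genes and 1.14% higher, and that call was lost when any of the 4 libraries was left out (0.45 to 0.57), with total-count scaling (0.52), with counts from TPM (0.50) or with only those 4 libraries fitted (0.51). ANXA4 overlaps AAK1 on the opposite strand over 29925 bases, and whether the counting used strand is not given in the sources used here, so reads of the overlap cannot be told apart. AAK1 held between 5311 and 9220 reads in each library. The same limit holds for S100A6 and S100A11, which antisense genes overlap on the opposite strand over 517 and 10269 bases. Those antisense genes are not among the genes in the data.

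ANXA6 dipped before it rose. It was at 15.5 and 18.5 CPM (0 h), 16.3 and 16.5 (0.5 h), 14.7 and 17.1 (1.5 h), 16.8 and 16.2 (3 h), 6.83 and 8.53 (6 h), 31.4 and 34.5 (24 h), 31 and 35.4 (48 h) and 33.3 and 35.6 (72 h). The 6 h libraries lay below all others and those from 24 h on above all others. Against 0 h its log2 fold change was -1.14 at 6 h (SE 0.14, edgeR adjusted p = 7.49e-06), 0.96 at 24 h (SE 0.13) and 1.02 at 72 h (SE 0.13). The step from 6 to 24 h was 2.1 (SE 0.14).

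ANXA11, an annexin with a long disordered end that links RNA granules to lysosomes, also had its lowest level at 6 h, without a later rise above 0 h. It was at 181 and 229 CPM (0 h), 174 and 174 (0.5 h), 165 and 173 (1.5 h), 191 and 171 (3 h), 95.4 and 106 (6 h), 127 and 139 (24 h), 140 and 147 (48 h) and 136 and 153 (72 h). The 6 h libraries lay below all others, and the 0 h pair was spread, with replicate 1 inside the range of the 3 h libraries. Its log2 fold change against 0 h was -1.03 at 6 h (SE 0.12, edgeR adjusted p = 3.43e-06). At 72 h it was still lower, by a log2 difference of -0.51 (SE 0.11, edgeR adjusted p = 0.00163). With counts derived from TPM the 48 h (-0.31) and 72 h (-0.24) falls did not pass. The partial return from 6 to 24 h (0.40, SE 0.11) was lost without 6 h replicate 1 (0.32) or 24 h replicate 2 (0.30).

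S100A4, which binds the heavy chain of non-muscle myosin, was low throughout, with 26 to 152 reads a library. Its level was 1.01 and 1.16 CPM (0 h), 1.00 and 0.975 (0.5 h), 0.812 and 0.773 (1.5 h), 0.987 and 0.913 (3 h), 2.01 and 1.20 (6 h), 3.16 and 3.15 (24 h), 4.21 and 3.10 (48 h) and 4.18 and 2.69 (72 h). The libraries of 24 h and later lay above all earlier ones, and replicates differed most at 6, 48 and 72 h. At 6 h its log2 fold change of 0.55 (SE 0.30) did not pass (edgeR adjusted p = 0.130), but it did without 6 h replicate 2 (0.90) and with the replicate block and the GC trend removed together (0.67). The step from 3 to 6 h was 0.74 (SE 0.30, edgeR adjusted p = 0.0632), which passed without 6 h replicate 2 (1.09) and with the replicate number as a block (0.73). S100A4 was 1.54 log2 units above 0 h at 24 h (SE 0.28) and 1.66 at 72 h (SE 0.28, edgeR adjusted p = 0.000159). The step from 6 to 24 h (0.99) was lost without 6 h replicate 2 (0.64). S100A4 overlaps S100A3 on the same strand over 2044 bases, and S100A3 held 0 and 1 reads at 0 h and 41 and 49 at 72 h.

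**Figure D2:**
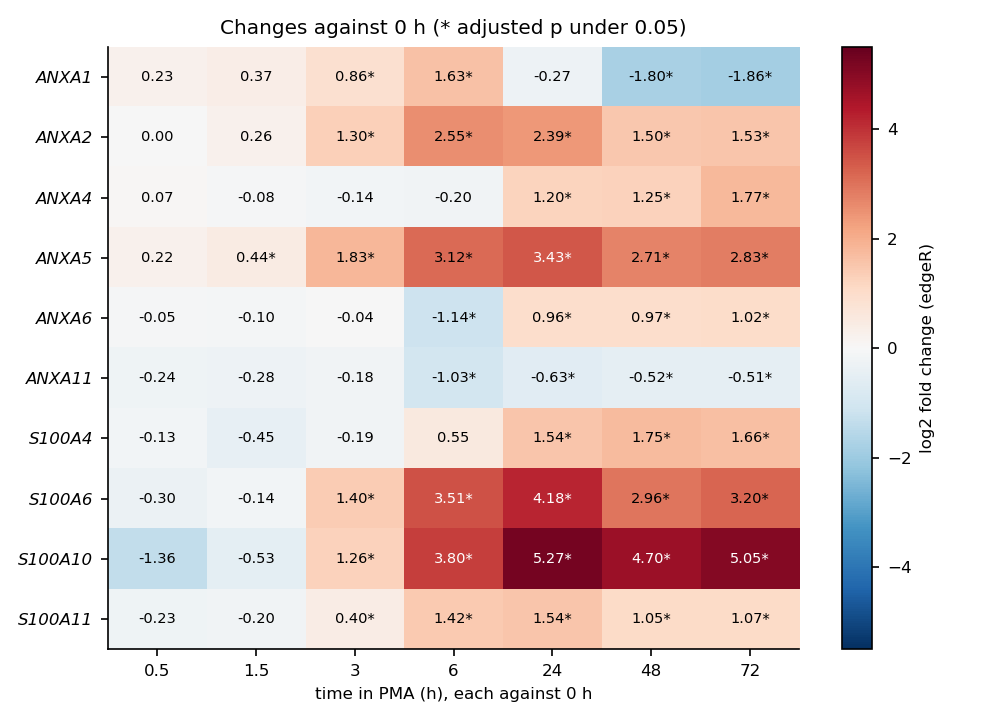
Log2 fold change of each gene at 7 time points against 0 h (edgeR); red is higher, blue lower, and an asterisk marks adjusted p under 0.05. S100A10 reached 5.27 at 24 h, and ANXA1 went from 1.63 at 6 h to -1.86 at 72 h.

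Counted over time, none of the 10 genes passed at 0.5 h by edgeR, with 2 at an unadjusted p under 0.05 and none by DESeq2, at a background of 0.171%. At 3 h 6 genes had risen (ANXA1, ANXA2, ANXA5, S100A6, S100A10 and S100A11) and none had fallen, at a background of 42% in either direction and 21.5% higher. By 6 h 6 had risen and 2 had fallen, beside 57.2% of all genes called, 27.8% higher and 29.4% lower. The 24 h libraries gave 8 rises and 1 fall, beside 58.3% called, 31.7% higher and 26.6% lower, and those of 48 h gave 8 rises and 2 falls, beside 54.3% called, 30.2% higher and 24.1% lower. The test for any change over the course called all 10 genes, at a background of 82.9%. The median absolute log2 fold change at 6 h was 1.53 for the 10 genes and 0.65 over all genes tested.

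Between neighbouring time points, no gene passed from 0.5 to 1.5 h by edgeR (2 at an unadjusted p under 0.05, none by DESeq2, background 5.77%). From 1.5 to 3 h 6 rose and none fell, beside 25.1% of all genes called and 13% higher. From 3 to 6 h 6 rose and ANXA6 and ANXA11 fell, beside 41.2% called, 19% higher and 22.1% lower. From 6 to 24 h 7 rose and ANXA1 fell, beside 56.6% called, 30.8% higher and 25.8% lower. From 24 to 48 h none rose and 5 fell, namely ANXA1, ANXA2, ANXA5, S100A6 and S100A11, at a background of 15% of genes called in either direction and 6.12% called lower. The medium was changed after 24 and 48 h. Time in PMA and the fresh medium therefore cannot be told apart in any step or comparison that includes 48 or 72 h.

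Scaling libraries to their total counts in place of TMM factors moved the median of all genes to -0.28 (3 h), -0.35 (6 h), -0.26 (24 h), -0.18 (48 h) and -0.19 (72 h). Under it 5 members rose and 3 fell at 3 h, 6 rose and 3 fell at 6 h, and 8 rose and 2 fell at 24, 48 and 72 h. The share of all called genes that were higher went from 51.2% to 27.4% at 3 h, from 48.6% to 30.3% at 6 h and from 54.4% to 38.7% at 24 h. No called difference of the 10 genes changed sign under any scaling, and each had the same sign within replicate 1 and within replicate 2.

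Compared per length, the order of the 10 genes differed between time points. At 0 h ANXA1 led at 588 and 478 TPM, followed by S100A11 at 321 and 386, ANXA2 at 235 and 230 and ANXA11 at 189 and 243, and the last pair overlapped. ANXA5 (63.1 and 52.4) and S100A6 (44.5 and 55.6) overlapped as well, and ANXA6, ANXA4, S100A4 and S100A10 lay below 13 TPM. At 6 h ANXA1 (1453 and 1258) and ANXA2 (1160 and 1040) led. At 24 h ANXA2 (1143 and 1093), S100A11 (982 and 1009) and S100A6 (1060 and 905) led, and S100A11 and S100A6 overlapped. At 72 h the order was S100A11 (773 and 839), ANXA2 (732 and 633), S100A6 (605 and 484) and ANXA5 (441 and 385), with ANXA11 (181 and 192) and ANXA1 (182 and 128) next and overlapping. These totals include transcripts not annotated as protein-coding. On coding transcripts alone, ANXA11 was at 107 and 119 TPM at 0 h, below ANXA2 at 211 and 207. At 72 h ANXA11 was at 76.45 and 87.4 TPM on coding transcripts, below ANXA1 at 174 and 120.

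**Figure D3:**
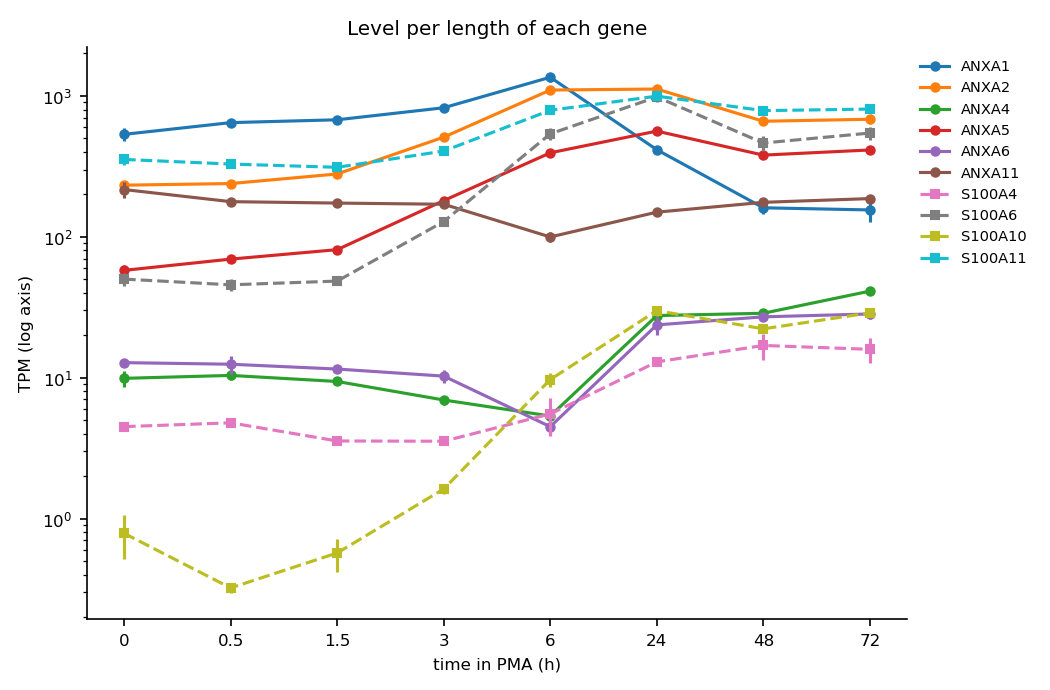
Mean TPM (log axis) of each gene at each time point (not to scale), with vertical bars from the lower to the higher of 2 libraries; solid lines are annexins and dashed lines S100 genes. With all transcripts counted, ANXA1 was first up to 6 h and sixth by mean at 72 h. S100A6 rose from 50.1 TPM at 0 h to 982 TPM at 24 h.

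The 10 genes together summed to 1470 and 1472 TPM in the 0 h libraries, 4507 and 4096 TPM in those of 6 h, 4427 and 4205 TPM in those of 24 h, and 3027 and 2775 TPM in those of 72 h. ANXA1 held 53.5% and 46.7% of the TPM of the 6 annexins in the 0 h libraries, 46.6% and 44.9% in those of 6 h, and 11.4% and 9.07% in those of 72 h. ANXA2 went from 0.4 and 0.48 times the TPM of ANXA1 at 0 h to 4.02 and 4.95 times at 72 h. Among the 4 S100 genes, S100A11 held 86.7% and 86.3% at 0 h and 47.1% and 51.5% at 24 h, while S100A6 held 12% and 12.4% at 0 h and 50.9% and 46.2% at 24 h.

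The reads of each gene were also split by transcript, with no test. In ribosome-depleted total RNA, unspliced and partly spliced RNA is sequenced too, and reads from introns can be assigned to transcripts annotated with a retained intron or as non-coding. For ANXA2 the share of reads on transcripts not annotated as protein-coding was 8.98 and 8.60% (0 h), 8.29 and 8.53 (0.5 h), 21.4 and 17.4 (1.5 h), 19.3 and 28.1 (3 h), 11.4 and 10.5 (6 h), 2.92 and 2.01 (24 h), 4.47 and 3.65 (48 h) and 3.49 and 4.19 (72 h). The 1.5 and 3 h libraries lay above all others. ANXA5 had 10.9 and 8.84% (0 h), 8.23 and 11.3 (0.5 h), 20 and 13.1 (1.5 h), 15.3 and 18.4 (3 h), 7.23 and 6.23 (6 h), 3.33 and 2.81 (24 h), 3.77 and 3.35 (48 h) and 3.03 and 3.91 (72 h), again highest at 1.5 and 3 h. ANXA1 had shares of 1.8% to 8.1%, with every library of 1.5, 3 and 6 h above every other. ANXA1 had no reads on retained-intron transcripts in any library. Whether any of its 8 transcripts is annotated as such was not checked, so this is not set against ANXA2 and ANXA5. In each of the 3 genes the 1.5 and 3 h libraries lay above those of 24 h. The same share over all genes is not given here.

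ANXA4 had the largest share of this kind: 56.5 and 61.6% (0 h), 57.6 and 61.5 (0.5 h), 56.3 and 53.6 (1.5 h), 42.5 and 54.2 (3 h), 73 and 72 (6 h), 40.6 and 32.7 (24 h), 37.9 and 34.8 (48 h) and 25.9 and 37.3 (72 h). ANXA4-209, a retained-intron transcript of 3949 bases, held 35.9% and 39.5% of the gene's reads (0 h), 49.8% and 52.8% (6 h) and 9.99% and 16% (72 h). The TPM of its protein-coding transcripts alone was 4.36 and 3.33 (0 h), 1.47 and 1.67 (6 h) and 25.6 and 22.8 (72 h). The 6 h libraries were thus the lowest by coding transcripts, whereas the gene total at 6 h (log2 fold change -0.20, SE 0.11) did not pass the test (edgeR adjusted p = 0.150). It passed as lower at 6 h with counts derived from TPM (-0.56), with total-count scaling (-0.57) and with the GC trend removed (-0.26).

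**Figure D4:**
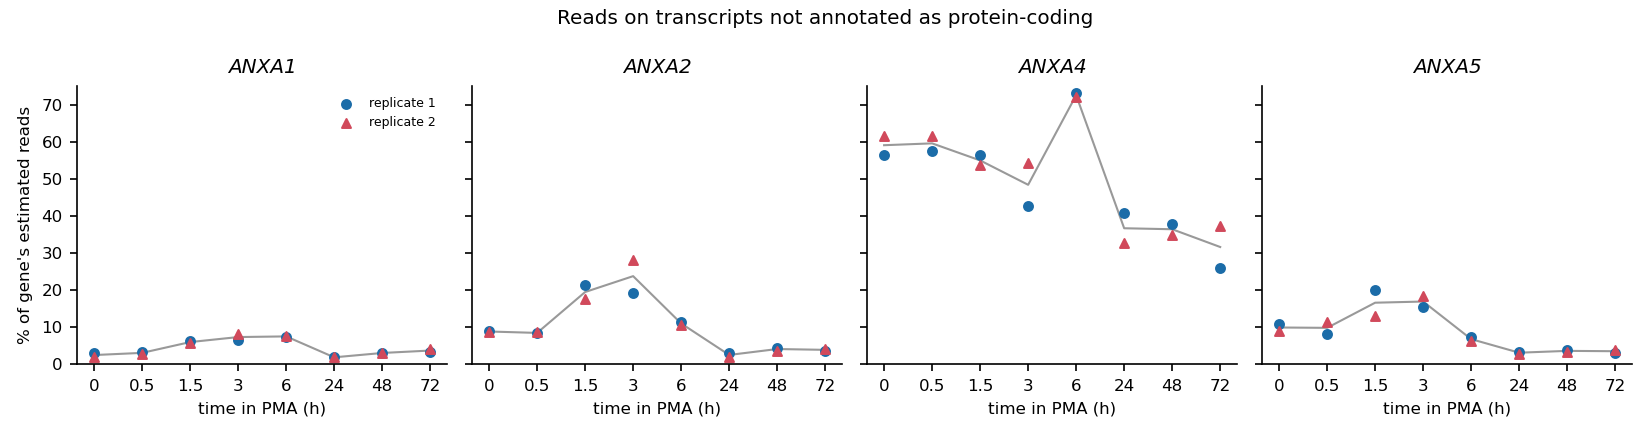
Percent of a gene's estimated reads on transcripts not annotated as protein-coding, in each library, for ANXA1, ANXA2, ANXA4 and ANXA5 against time in PMA (not to scale); circles are replicate 1, triangles replicate 2, lines join the means. ANXA2 reached 28.1% at 3 h and ANXA4 73.0% at 6 h.

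Shares of single coding transcripts, as a percent of all reads of the gene, also differed over the course. S100A6-205 held 21.9% and 17.7% of S100A6 reads at 0 h and 1.26% and 2.91% at 24 h, with S100A6-201 holding most of the rest. ANXA2-204 held 65.1% and 64.2% of ANXA2 reads in the 0 h libraries, 48.3% and 38.4% in those of 3 h, and 73.5% and 74.4% in those of 72 h. ANXA4-202 held 19.8% and 18.1% of ANXA4 reads in the 0 h libraries, 4.50% and 12.3% in those of 6 h, 30.5% and 49.8% in those of 24 h, and 34.6% and 41.4% in those of 72 h. For ANXA6 and S100A4 the replicates disagreed over the main transcripts, as ANXA6-201 held 15.3% and 54.7% at 72 h and S100A4-203 held 59.3% and 26.3% at 0 h, so no difference between time points is described for them.

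The other annexin and S100 genes were counted from a list of 25, of which 15 were tested. At 6 h 8 of the 15 had risen and 4 had fallen, beside 57.2% of all genes called, 27.8% higher and 29.4% lower. At 72 h 10 had risen, 4 had fallen and 1 was not called, beside 58.6% called, 31.7% higher and 26.9% lower. However, S100A2, S100A3, S100A5, S100A9, S100A14 and S100Z had 3 reads or fewer in each 0 h library. These 6 passed the low-count filter through later time points and could be called only as higher, so the counts of rises do not measure the list. The other rises at 72 h were ANXA9, S100A1, S100A13 and S100A16, and the falls were ANXA3, ANXA7, ANXA2R and S100P. The median log2 fold change of the 15 at 72 h was 2.93, beside -0.03 over all genes tested, or 2.15 with those 6 genes set at their lower bound. Both medians include the 6 genes and so do not show a rise of the list as a whole. The genes with more reads at 0 h went both ways. Their values were -5.86 (S100P), -1.23 (ANXA3), -0.74 (ANXA2R), -0.44 (ANXA7), -0.22 (ANXA13), 1.18 (ANXA9), 2.15 (S100A1), 2.93 (S100A13) and 7.20 (S100A16). S100A16 had the largest fitted rise, from 55 and 55 reads at 0 h to 8543 and 8719 at 72 h, or 7.20 log2 units higher (SE 0.15, edgeR adjusted p = 1.98e-13). S100A5, named after its values were seen, had 1 and 3 reads at 0 h and 344 and 283 at 72 h, at least 97.7-fold higher against a floor of 3 reads per library, so its place relative to S100A16 is not settled. S100P fell most, from 896 and 1067 reads to 21 and 15 (log2 fold change -5.86, SE 0.35). S100A13, the most abundant of the list by mean TPM and known for helping release proteins that lack a signal peptide, had 444 and 548 reads at 0 h and 4807 and 3319 at 72 h (2.93, SE 0.15).

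A second list of 25 held binding partners, receptors and membrane repair genes, of which 24 were tested. At 6 h 12 had risen and 4 had fallen, and at 72 h 14 had risen, 1 had fallen and 9 were not called, with a median log2 fold change of 0.66 beside -0.03 over all genes tested. Calls in either direction were near the background of 57.2% of all genes at 6 h and 58.6% at 72 h. By direction the background was 27.8% higher and 29.4% lower at 6 h, and 31.7% higher and 26.9% lower at 72 h. The list gave more rises and fewer falls than those shares. MYOF, which encodes the ferlin myoferlin and had the largest fitted rise, had no reads in either 0 h library and 12 and 17 at 72 h, at least 4.59-fold higher against a floor of 3 reads per library. PLA2G4A, which encodes a cytosolic phospholipase A2 and was named after its values were seen, had 8 and 13 reads at 0 h and 269 and 218 at 72 h, 21.4-fold higher (log2 4.42, SE 0.31). SRI, which encodes the EF-hand protein sorcin, had 1089 and 973 reads at 0 h and 662 and 454 at 72 h (log2 fold change -0.99, SE 0.14). CAPNS1, the small subunit of calpain and the most abundant of the list by mean TPM, was at 0.14 (SE 0.16, edgeR adjusted p = 0.480) at 72 h, a sign that flipped with total-count scaling (-0.00940) and without 0 h replicate 1 (-0.12). Without 0 h replicate 2 CAPNS1 passed as higher (0.46), and with the GC trend removed it did so too (0.29). AHNAK, a large scaffold that binds the ANXA2 and S100A10 complex, was named after its values were seen. Its mean was 703 CPM at 0 h, 3983 CPM at 6 h (log2 fold change 2.50, SE 0.12, edgeR adjusted p = 8.65e-10), 1298 CPM at 24 h and 1230 CPM at 72 h. AHNAK fell by 1.62 on the log2 scale from 6 to 24 h (SE 0.12) and was still 0.81 log2 units above 0 h at 72 h (SE 0.12).

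**Figure D5:**
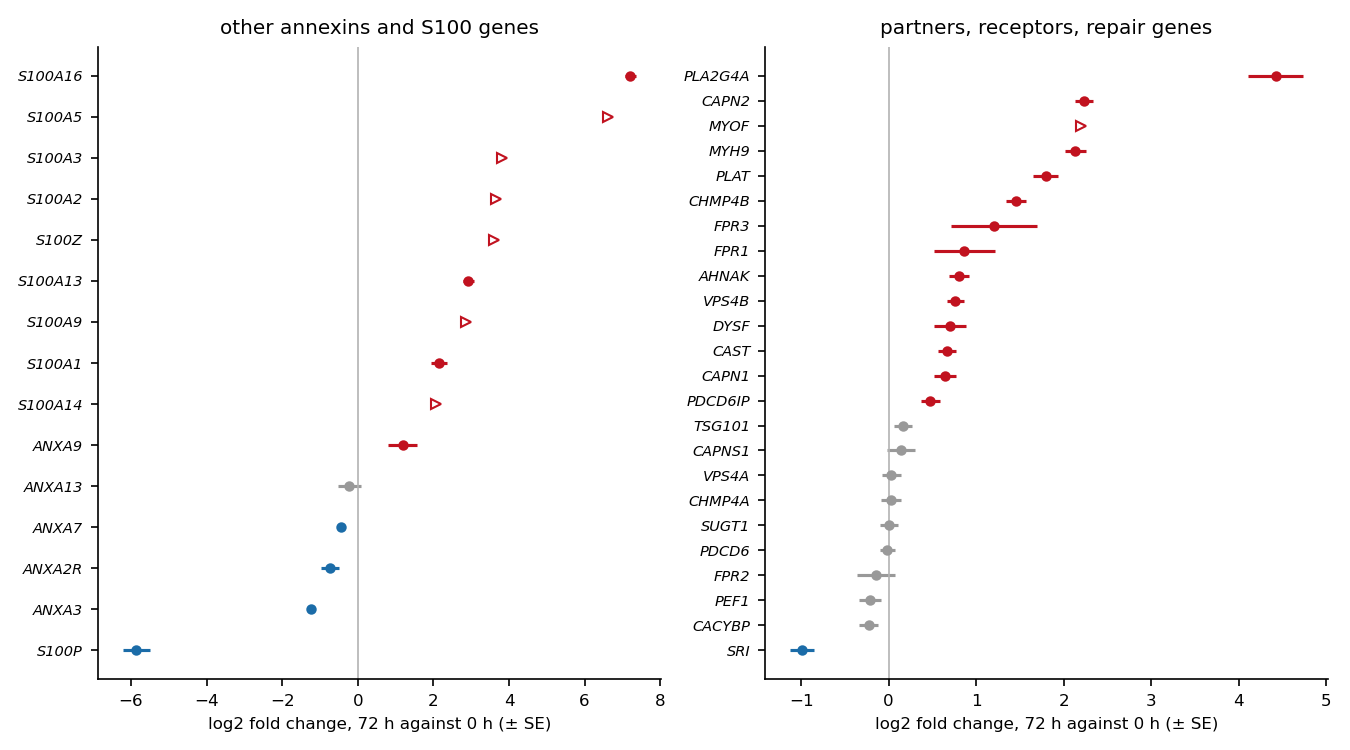
Log2 fold change at 72 h against 0 h (edgeR, bars are SE) of the 15 other annexin and S100 genes tested and of 24 partner genes; red is called higher, blue called lower, grey not called, and open triangles are lower bounds for genes at 3 reads or fewer in both 0 h libraries. S100A16 at 7.20 and S100P at -5.86 are the ends of the first list.

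Among 10345 other genes averaging 5 CPM or more that had a called change over the course, those with the course most like each member were found by Pearson correlation of log2 CPM over the 16 libraries. These are descriptions over 8 shared time points. ANXA5 was nearest to CAPN2, the large subunit of a calpain (r = 0.995), and WSB2 (0.994). S100A10 was nearest to CD63, a tetraspanin of lysosomes and granules (0.995), and GSN, the actin-severing protein gelsolin (0.991). ANXA2 was nearest to CTNNA1, which encodes alpha-catenin (0.989), and S100A6 and S100A11 both had C1orf198 among their nearest (0.994 and 0.988). ANXA1 was nearest to CSNK2A2 (0.983) and the elongation factor gene EEF1A1 (0.980), ANXA4 to NPL (0.986), ANXA6 to STAT2 (0.982), ANXA11 to NAXE (0.986) and S100A4 to SLC22A4 (0.978).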

How the data were processed

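Total RNA from K562 cells was extracted with Qiagen RNeasy columns and DNase I, depleted of ribosomal RNA and made into libraries with a KAPA kit, per the labels' protocols. The authors deposited 1 Salmon table per library with estimated counts (expected counts of reads per transcript) and TPM values. The columns of transcript length and effective length in the deposited tables served to read the fragment length. The submitters' processing notes name Salmon, Trim Galore 0.4.3, HISAT2 2.1.0 and the builds hg19 and hg38 without roles. Of 177456 transcripts, 167027 matched GENCODE 29 by identifier, and the unmatched held 3.01% to 3.75% of reads.

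Counts were summed per gene, rounded and fitted with edgeR 4.0.16 (TMM, filterByExpr, group means over 16 libraries, quasi-likelihood test, Benjamini-Hochberg over 17559 genes within each of 13 comparisons), with DESeq2 1.42.0 as an alternative. The script was tested on simulated data. Gene TPM was the sum over transcripts. Sequences came from RefSeq on GRCh38.p14, and protein sequences were not used here. Members and lists were chosen with earlier results of these data known. Named genes were the 10 members, in each list the largest called rise and fall (fitted values) at 72 h and the highest mean TPM, and for each member the 2 genes of most like course. Alternatives covered size factors, low-count filters, counts from TPM, the GC trend, the libraries fitted, the threshold and each library left out.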

Additional observations from a re-analysis of the deposited data

How the results depend on the processing

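All values that were called kept their sign under every alternative run. The number of members called at 0.5 h ranged from 0 to 3 with 1 library left out, and was 3 without 0 h replicate 1. At 1.5 h it was 1, but 2 with total-count scaling, no low-count filter, counts from TPM or the GC trend removed, 0 with only the compared libraries fitted, and 0 to 3 with 1 library left out. From 0.5 to 1.5 h it was 0, but 2 with the GC trend removed or only the compared libraries fitted. From 48 to 72 h it was 1, but 0 with total-count scaling, counts from TPM, only the compared libraries or an adjusted p under 0.01, and 0 with any of the 4 libraries left out. With at least 10 counts in every library, which tests fewer genes, the annexin and S100 list gave 6 calls at 6 h and 6 at 72 h in place of 12 and 14. CAPNS1 at 72 h was at -0.00940 with total-count scaling and from -0.12 to 0.46 with 1 library left out, and the cause was not tested.

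The labels do not say that a replicate number marks a shared culture or day, so the samples were not treated as paired. Over 28 pairs of time points the correlation of same-numbered deviations ran from -0.12 to 0.21, and 14 exceeded 0.1. Replicate 2 also had the longer fragments at each of the 7 treated time points. Whether the replicate number marks a shared effect was not tested. With the replicate number as a block, 2 members were called at 1.5 h in place of 1, also with the GC trend removed, and with both, 2 were called from 0.5 to 1.5 h. The block also brought S100A4 past the threshold from 3 to 6 h (0.73), with the GC trend removed also at 6 h against 0 h (0.67), and ended no call. Over all genes at 0.5 h, DESeq2 called 121 where edgeR called 30. Calls before 3 h rest on the 0 h pair, and S100A10 and S100A4 on few reads.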
